A study of Mus musculus with 9 samples.

Results

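The miRNAs of glomeruli with late autoimmune glomerulonephritis (GN) were set against those of control glomeruli over 477 mouse miRNAs. These were the miRNAs with a mouse name that had a listed value on each of the 6 arrays of the comparison, out of 1096 mouse probes and 1135 probes in all, so detection and not a measured difference chose them. The late GN group was 3 female B6.MRLc1 mice at 14 months of age, and the control group was 3 female C57BL/6 mice at 9 months. B6.MRLc1 is a congenic strain in which the telomeric end of MRL/MpJ chromosome 1 lies on a C57BL/6 background, and its females develop a lupus-like GN as they age. None of the mice was treated, and all were kept free of specific pathogens. Control mice were 5 months younger than late GN mice, so age, the congenic segment and the stage of disease cannot be told apart in this comparison. Glomeruli were isolated after perfusion of the kidney with magnetic beads, and RNA of each mouse was hybridized to its own single-colour 3D-Gene array. The study also arrayed 3 B6.MRLc1 mice with early GN at 9 months, which are not used here except in an alternative fit.

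A miRNA is a short RNA that pairs through its seed, the bases near its 5′ end, with messenger RNAs and lowers their output, and miRNAs with the same seed form families with overlapping targets. The glomerulus is a tuft of capillary endothelium held by mesangial cells and covered by podocytes, the cells whose foot processes complete the filtration barrier. Loss of the miRNA-processing enzyme Dicer in mouse podocytes leads to proteinuria and scarring of the glomerulus, and autoimmune GN brings leukocytes into the tuft. In RNA of whole glomeruli, fewer cells of a type and less of a miRNA per cell cannot be told apart.

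Sequences of miRNAs that the comparison turned on are shown first, with the seed, bases 2 to 8, in capitals. They are mature sequences of the RefSeq annotation of mouse build GRCm38.p6, and the arm of names without an arm suffix, such as let-7a, was assigned by hand. The first set, down to miR-204, was lower in late GN on both scalings used here and shows the seeds that families share. The second set was higher in late GN on both scalings and holds miRNAs of leukocytes and of kidney injury, then miRNAs with some of the largest differences.
let-7a: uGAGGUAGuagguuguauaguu
let-7c: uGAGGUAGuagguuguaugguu
miR-98: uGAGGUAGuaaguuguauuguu
miR-30a: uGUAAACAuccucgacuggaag
miR-30c: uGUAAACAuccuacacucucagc
miR-30e: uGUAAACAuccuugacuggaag
miR-26a: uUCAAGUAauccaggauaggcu
miR-26b: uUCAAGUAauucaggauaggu
miR-16: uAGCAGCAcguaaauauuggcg
miR-195: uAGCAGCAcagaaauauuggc
miR-322: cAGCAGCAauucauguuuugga
miR-10a: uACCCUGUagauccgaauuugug
miR-10b: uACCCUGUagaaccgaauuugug
miR-204: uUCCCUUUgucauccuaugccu
miR-21: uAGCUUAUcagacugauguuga
miR-223: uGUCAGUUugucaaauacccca
miR-155: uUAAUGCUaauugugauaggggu
miR-142-3p: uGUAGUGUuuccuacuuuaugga
miR-494: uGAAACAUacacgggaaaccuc
miR-491: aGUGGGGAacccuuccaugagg
miR-1247*: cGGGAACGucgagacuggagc
miR-1962: aGAGGCUGgcacugggacacau
miR-711: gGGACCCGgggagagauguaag
miR-706: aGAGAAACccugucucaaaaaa
A star in an older name, as in miR-1247*, marks the strand of the hairpin that was seen less often when it was named. In build GRCm38.p6 the mature let-7a above lies on the minus strand at chr13:48538239-48538260, miR-195 on the plus strand at chr11:70235062-70235082, miR-21 on the minus strand at chr11:86584120-86584141 and miR-155 on the plus strand at chr16:84714143-84714165. Mature miR-26a is encoded in identical form at 2 loci, chr9:119031811-119031832 and chr10:126995543-126995564.

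The deposited values are fluorescence intensities with the background removed, multiplied on each array by a single factor that sets the median of that array's listed values to 25. The late GN arrays 1 to 3 listed 731, 696 and 672 mouse probes and the control arrays 579, 573 and 575, so the same 477 miRNAs had medians of 52.7, 52.3 and 46.5 on late GN arrays and 36.4, 36.5 and 39.1 on control arrays. Each difference is therefore given on the deposited scaling and, where needed, after rescaling each array so that the 477 miRNAs had the same median. The change of scaling lowers every log2 fold change by the same 0.44. Both scalings hold the ratios between miRNAs of an array unchanged, and neither shows whether the total amount of miRNA differed. Pearson's r of log2 values across the 477 miRNAs was 0.986 to 0.991 between late GN arrays, 0.989 to 0.990 between control arrays and 0.951 to 0.974 between a late GN and a control array. Arrays share probes and chemistry, and these coefficients only describe the spread. Late GN and control arrays lay on different slides, and the detector gain was 35, 36 and 37 for late GN arrays 1 to 3 against 35 for each control array. Slide and group cannot be told apart.

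On the deposited scaling, 226 of the 477 miRNAs (47.4%) were significantly higher and 71 (14.9%) significantly lower in late GN than in control glomeruli (limma, adjusted p under 0.05), 62.3% in either direction. With the common median, 116 (24.3%) were higher and 157 (32.9%) lower, 57.2% in either direction. The 116 were all among the 226, and the 71 were all among the 157, and no miRNA was called in opposite directions. Other scalings moved the split between the directions further, to 119 higher and 121 lower after quantile normalization, 90 and 90 after quantile normalization of the scanner signal, 47 and 135 when the 75th percentile of all mouse probes set the scale of the scanner signal, and 215 and 42 when the spike controls set the scale. Between the first pair of scalings, 110 miRNAs were higher on the deposited scaling alone and 86 lower on the common median alone, while 94 passed the test on neither. All 3 late GN arrays lay above all 3 control arrays for 229 miRNAs (48%) and below them for 93 (19.5%) on the deposited scaling, and for 144 (30.2%) and 164 (34.4%) with the common median. Fold changes ran on the log2 scale from -1.67 to 2.05 with a median of 0.48 and a median SE of 0.19. An exact permutation test of 3 arrays against 3 cannot give a p below 0.1 for any miRNA, so the calls rest on the distribution that the fit assumes. The methods' t-test, which shares no variance across miRNAs, gave 181 higher and 58 lower after adjustment on the deposited scaling.

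The differences did not lie around a single centre. On the deposited scaling 136 miRNAs were below -0.2 and 177 between 0.6 and 1.2, with 74 between -0.2 and 0.2, 16 between 0.2 and 0.4 and 42 between 0.4 and 0.6. The few miRNAs between 0.2 and 0.4 lie just below the zero of the common-median scaling at 0.44, which falls between the groups of lower and higher miRNAs. Which miRNAs made up each side largely followed their place in the miRBase numbering, and the number 680 used below to split the names was chosen after the values were seen.

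**Figure D1:**
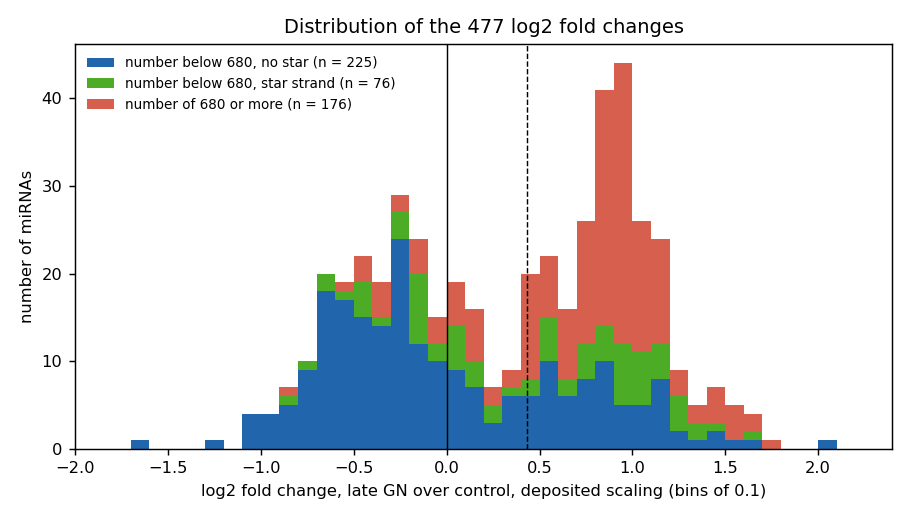
Number of miRNAs (vertical axis) by log2 fold change of late GN over control on the deposited scaling (horizontal axis, bins of 0.1), stacked by miRBase number and star strand. The solid line marks 0 and the dashed line the zero of the common-median scaling at 0.44; miRNAs numbered below 680 without a star (n = 225) make up most of the left side and those of 680 or more (n = 176) most of the right.

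Several families of conserved miRNAs with shared seeds were lower in late GN. All 9 measured members of the let-7 family, regulators of differentiation that carry the seed GAGGUAG, were significantly lower on both scalings, with log2 fold changes of -0.95 to -0.55 on the deposited scaling, where 14.9% of all miRNAs were lower. let-7c read 4376, 5981 and 4919 in late GN and 9535, 10839 and 9050 in control glomeruli. Every late GN array was below every control array, and the means were 5092 ± 816 in late GN and 9808 ± 925 in control (SD, n = 3 each). The log2 fold change was -0.95 ± 0.18 (SE, limma adjusted p = 0.00225) on the deposited scaling and -1.39 with the common median. let-7a read 7614, 6730 and 5767 in late GN against 10360, 11976 and 11444 in control glomeruli, a log2 fold change of -0.75 with no overlap. The smallest change in the family was that of let-7i at -0.55, whose call on the deposited scaling ended when late GN array 2 or 3 or any control array was left out (-0.43 to -0.56, limma adjusted p 0.061 to 0.099), and that of let-7g ended without control array 2 (-0.54, limma adjusted p = 0.051). The median of the family was -0.63, against 0.48 over all 477 miRNAs, and it stayed below 0 under each scaling tried. With either quantile normalization 6 of 9 were lower, and with values scaled to the spike controls 5 of 9.

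The miR-30 family, which is abundant in podocytes and guards their cytoskeleton in the mouse, was lower in 4 of 5 members on both scalings, where 14.9% of all miRNAs were lower. After quantile normalization of the deposited values or of the scanner signal, 1 of 5 was lower. miR-30a read 6270, 5143 and 6316 in late GN and 10159, 8752 and 11116 in control glomeruli, and its log2 fold change was -0.76 (limma adjusted p = 0.00447). The arrays of the groups did not overlap for miR-30a. miR-30b was at -0.69, miR-30c at -0.69 and miR-30e at -0.79, the last resting on late GN array 2, which read 394 beside 885 and 924. Without that array miR-30e was at -0.39 (limma adjusted p = 0.067), and without control array 2 or 3 its adjusted p was 0.090 or 0.070. miR-30d did not pass the test, at -0.33 (limma adjusted p = 0.43), with 3806, 4425 and 4638 in late GN and 2780, 8157 and 6783 in control glomeruli. Control array 1 was the low one of its group for miR-30d, and without it the log2 fold change was -0.80 (limma adjusted p = 0.0095).

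miR-26a, the podocyte miRNA that the study followed, read 7523, 7572 and 7399 in late GN and 10893, 12200 and 11431 in control glomeruli. The late GN arrays lay within a narrow band below all control arrays, at 7498 ± 89.1 against 11508 ± 657 (SD, n = 3 each). The log2 fold change was -0.62 ± 0.15 (SE, limma adjusted p = 0.00664), a 1.53-fold lower level, and it ran from -1.10 to -0.38 over 7 scalings with the call kept in each. miR-26b, with the same seed UCAAGUA, was at -0.55 on the deposited scaling. Its call ended without late GN array 2 (-0.41, limma adjusted p = 0.074) and without control array 1 (-0.54, 0.064) or 3 (-0.46, 0.094).

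Members of the miR-23, miR-27 and miR-24 clusters, which are transcribed together at paired loci and act in endothelium and muscle, were lower in 4 of 5 cases on the deposited scaling and in all 5 with the common median, where 14.9% and 32.9% of all miRNAs were lower. On the deposited scaling the count was 1 of 5 without control array 1 and 2 of 5 without late GN array 2 or control array 2 or 3, and it was 0 of 5 with values scaled to the spike controls. miR-27b read 2803, 2450 and 2514 in late GN and 3711, 3719 and 3961 in control glomeruli, a log2 fold change of -0.55 (limma adjusted p = 0.012). No late GN array reached a control array for miR-27b. miR-23b was at -0.53 and miR-24 at -0.51. The call of miR-23b ended without late GN array 2 or control array 1 or 2 (-0.44 to -0.51, limma adjusted p 0.051 to 0.079) and that of miR-24 without control array 1 or 3 (-0.52 and -0.49, 0.052 and 0.062). miR-23a was at -0.38 and passed only with the common median.

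Among 7 endothelial miRNAs, 5 were lower on both scalings, where 14.9% of all miRNAs were, and none was higher. Without control array 2, 3 of 7 were lower on the deposited scaling. miR-126-3p, the vascular miRNA of the Egfl7 gene that supports VEGF signalling, read 19500, 14596 and 17762 in late GN and 24543, 25735 and 23160 in control glomeruli. The groups did not overlap, and the log2 fold change was -0.51 (limma adjusted p = 0.0265). Without late GN array 2 it was -0.39 (limma adjusted p = 0.062), and without control array 1 or 2 it was -0.51 or -0.47 (0.067 and 0.074). miR-126-5p of the same hairpin was at -0.62, and miR-10a and miR-10b, which lie in Hox clusters and share the seed ACCCUGU, were at -0.65 and -0.62, the miR-10b call being lost without control array 2 (-0.51, limma adjusted p = 0.051). miR-218, an intronic miRNA of the Slit genes, read 30.8, 33.9 and 26.5 in late GN against 50.1, 58.3 and 52.6 in control glomeruli, at -0.83. miR-221 and miR-222, the clustered pair that restrains Kit in endothelium, went the other way in value but did not pass the test, at 0.35 and 0.39. They are also the 2 members of the list that sat near 0 with the common median, at -0.09 and -0.04.

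The mesangial and smooth muscle list was mixed. miR-145, which keeps smooth muscle contractile, read 3795, 3693 and 3513 in late GN and 5146, 5487 and 5352 in control glomeruli and was lower on both scalings, at -0.54 (limma adjusted p = 0.012). Its cluster partner miR-143 was at -0.21 and overlapped on the deposited scaling, at 4037, 2907 and 3084 in late GN against 3850, 3273 and 4457 in control glomeruli. miR-214, known from fibrosing kidney, was at 0.54 on the deposited scaling (limma adjusted p = 0.0191) and at 0.11 with the common median, which did not pass. The miR-214 call ended without late GN array 1 (0.48, limma adjusted p = 0.060) or control array 1 (0.51, 0.064) or 3 (0.53, 0.055), and its value was -0.018 when the 75th percentile of all mouse probes set the scale of the scanner signal.

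In other conserved families many members had smaller differences, and the calls of those members depended on the scaling. In the miR-15 and miR-16 family, brakes of the cell cycle with the seed AGCAGCA, 3 of 6 members were lower on the deposited scaling and all 6 with the common median, where 14.9% and 32.9% of all miRNAs were lower. The common-median call of miR-15b ended without any array other than late GN array 3 (-0.56 to -0.41, limma adjusted p 0.059 to 0.084), and that of miR-497 without any array other than control array 3 (-0.51 to -0.40, 0.074 to 0.14). miR-16 read 2180, 2736 and 2859 in late GN and 4146, 4548 and 3920 in control glomeruli, with no overlap and a log2 fold change of -0.71. miR-195 had the lowest fold change of the 477 miRNAs with all arrays in the fit, at -1.67 ± 0.58 (SE, limma adjusted p = 0.0302), and the SE was also the largest of all. Its values were 1257, 170 and 834 in late GN and 1689, 1962 and 1734 in control glomeruli, so late GN array 2 stood more than 4-fold below both other arrays of its group. With late GN array 2 left out, miR-195 was at -0.81 (limma adjusted p = 0.0193). The call of miR-195 ended without late GN array 3 (-1.96, limma adjusted p = 0.052) or control array 2 (-1.61, 0.076). The only other miRNA with such a spot was miR-106b, where control array 1 read 49.0 beside 327 and 272.

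Among the 12 miRNAs measured from the proliferative miR-17-92 polycistron and its paralogs, 1 was lower on the deposited scaling and 10 with the common median. Of all miRNAs, 14.9% and 32.9% were lower. The median of the 12 was -0.23 on the deposited scaling. miR-25 was the lower one, at -0.46, a call that ended when any array other than late GN array 3 was left out (limma adjusted p 0.053 to 0.12). miR-363-5p, the minor strand of a hairpin on the X chromosome, was the exception, at 46.0, 33.9 and 25.7 in late GN against 14.8, 14.9 and 16.8 in control glomeruli and a log2 fold change of 1.15 (limma adjusted p = 0.0023). The miR-29 family, which holds down collagen genes, had no call on the deposited scaling and 3 of 3 lower with the common median, with values of -0.38 to -0.01 on the deposited scaling. In the quantile-normalized values miR-29a and miR-29b were at 0.084 and 0.059, so this family had no settled direction. The miR-181 family (0 of 4 and 4 of 4 lower), the miR-99, miR-100 and miR-125 group (2 of 5 and 5 of 5) and the miR-130, miR-301, miR-148 and miR-152 group (3 of 7 and 7 of 7) had the same dependence on scaling, counting the deposited scaling first. On the deposited scaling 2 of 4 in the miR-181 family passed without late GN array 3 and 1 of 4 without control array 3, and in the miR-99 group 0 of 5 passed without control array 2 and 1 of 5 without any other array. In the miR-130 group 1 of 7 passed without late GN array 2 or control array 2. The call of miR-301a on that scaling ended without any array other than late GN array 3 (-0.47 to -0.37, limma adjusted p 0.066 to 0.090), and that of miR-130a without late GN array 1 or 2 or control array 2 (-0.66 to -0.43, 0.061 to 0.11). The common-median call of miR-181b ended without late GN array 1 or 2 or control array 2 (limma adjusted p 0.051 to 0.056), and that of miR-99a without any array other than control array 2 (0.052 to 0.11).

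A cluster on the X chromosome had the lowest median of the lists. Of 7 measured members of the miR-322, miR-503, miR-542 and miR-450 cluster, 6 were lower on the deposited scaling and 7 with the common median, beside 14.9% and 32.9% of all miRNAs. With values scaled to the spike controls 4 of 7 were lower. The median was -0.89 against 0.48 over all miRNAs. Its miR-322 and miR-503 are inducers of cell cycle exit in mouse muscle cells. miR-542-3p read 26.02, 19.9 and 35.6 in late GN and 48.7, 53.3 and 58.0 in control glomeruli, at -1.01 (limma adjusted p = 0.00362). miR-450a read 24.99, 16.5 and 27.3 in late GN and 42.5, 49.1 and 41.0 in control glomeruli, at -0.97. Neither miRNA overlapped between the groups, and both calls were kept in all 7 scalings, with values of -1.90 to -0.44 and of -1.41 to -0.31. miR-322 was at -0.61, a call lost without control array 3 (-0.55, limma adjusted p = 0.052), and miR-351 at -0.55. miR-503 did not pass on the deposited scaling, at -0.42.

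**Figure D2:**
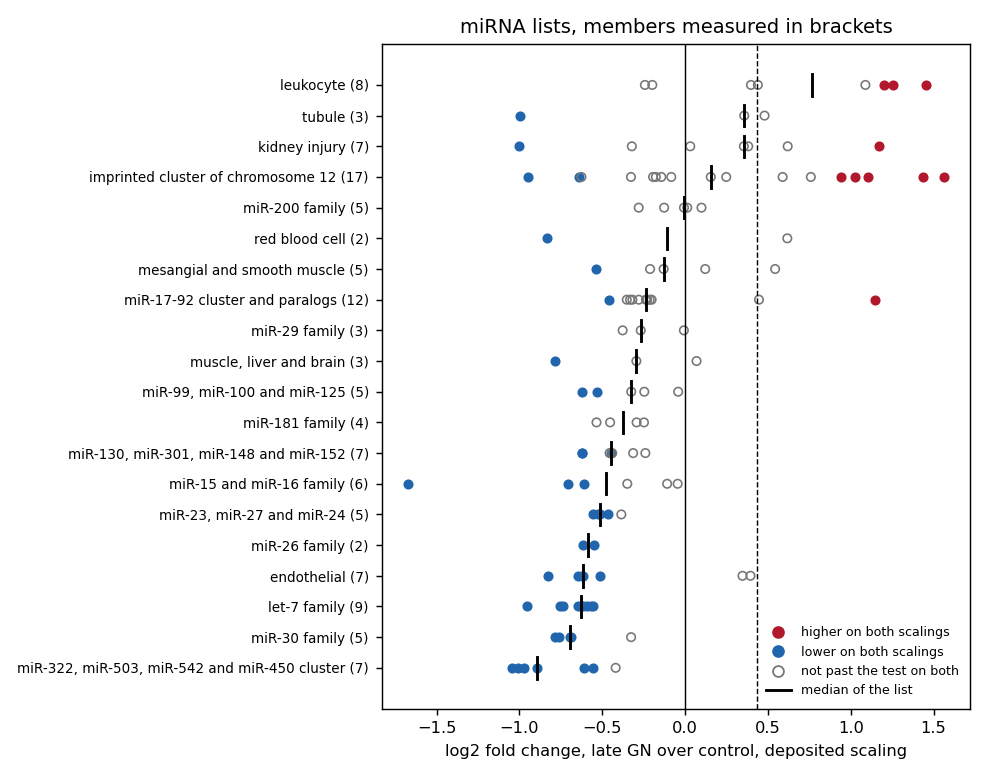
Log2 fold change of late GN over control on the deposited scaling (horizontal axis) for the members of the lists matched by name and measured. Rows are lists, with the number of members in brackets, and points are filled where the member passed the limma test on both scalings. The bar is the median of the list, the solid line is 0 and the dashed line at 0.44 is the zero of the common-median scaling; the X-linked cluster has the lowest median at -0.89 and the leukocyte list the highest at 0.76.

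Leukocyte miRNAs were higher in late GN for 4 of 8 measured members on the deposited scaling, where 47.4% of all miRNAs were higher, and for 3 of 8 with the common median, where 24.3% were higher. The lower ones there were 2 of 8, beside 32.9% of all. The other scalings gave 0 to 4 of 8 higher, and with the common median 0 of 8 were higher without late GN array 3 and 1 of 8 without late GN array 1 or control array 1. The median was 0.76, against 0.48 over all miRNAs. miR-223, a miRNA of neutrophils and monocytes, read 320, 240 and 323 in late GN and 99.5, 153 and 134 in control glomeruli. Late GN array 2 was the lowest of its group but above each control array, and the log2 fold change was 1.2 ± 0.21 (SE, limma adjusted p = 0.00186). miR-155, induced in activated lymphocytes and macrophages, read 25.9, 12.3 and 24.2 in late GN and 7.61, 7.97 and 6.16 in control glomeruli, at 1.46 ± 0.27 (SE, limma adjusted p = 0.00225). miR-142-3p, made across blood cells, read 50.6, 31.6 and 56.3 in late GN and 13.4, 20.1 and 24.7 in control glomeruli, at 1.25 ± 0.28 (SE, limma adjusted p = 0.00376).

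For each of miR-223, miR-155 and miR-142-3p, late GN array 2 was the lowest late GN array and no late GN array overlapped with control. That order was not particular to them. Late GN array 2 was also the lowest of its group for miR-30a, miR-126-3p, miR-27b and miR-195. With the common median the values were 0.76 for miR-223, 1.02 for miR-155 and 0.82 for miR-142-3p (limma adjusted p 0.017, 0.0176 and 0.0353). The common-median call of miR-223 ended without late GN array 3 (0.63, limma adjusted p = 0.059) or control array 1 (0.61, 0.053), that of miR-155 without late GN array 1 (0.86, 0.060) or 3 (0.82, 0.066), and that of miR-142-3p without late GN array 1 or 3 or control array 1 or 2 (0.59 to 0.88, 0.058 to 0.12). miR-142-5p from the same hairpin was at 1.09 on the deposited scaling and passed there alone, though without late GN array 2 it also passed with the common median (0.97, limma adjusted p = 0.010). Other members did not follow. miR-150, a miRNA of mature lymphocytes, read 64.8, 40.9 and 54.8 in late GN against 67.6, 54.1 and 65.8 in control glomeruli, at -0.24, and miR-146a was at 0.44 (limma adjusted p = 0.28), neither passing on that scaling. On the common-median scaling, miR-150 (-0.68, limma adjusted p = 0.022) and miR-146b (-0.63, 0.046) were lower. The call of miR-150 ended without late GN array 2 (-0.47, limma adjusted p = 0.052) or control array 1 (-0.60, 0.061), and that of miR-146b without late GN array 1 or 2 or control array 2 or 3 (-0.69 to -0.40, 0.073 to 0.14). The summed value of the 8 members was 850 to 1490 on late GN arrays and 663 to 1021 on control arrays. The part of leukocyte RNA in the differences of other lists was not tested.

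miR-21, the best known miRNA of kidney injury and fibrosis, read 2719, 1622 and 2598 in late GN and 844, 943 and 1255 in control glomeruli. Late GN array 2 was again the lowest of its group, and the groups did not overlap. The log2 fold change was 1.17 ± 0.24 (SE, limma adjusted p = 0.00284), a 2.25-fold higher level, and 0.74 with the common median (limma adjusted p = 0.0285), where the call ended without late GN array 1 or 3 or control array 1 or 2 (0.58 to 0.71, limma adjusted p 0.069 to 0.099). Over 7 scalings it was called higher in 6, at 0.69 to 1.2. Of the other 6 injury-list members, miR-335-5p, processed from the Mest transcript, was lower on both scalings, at 167, 105 and 116 in late GN against 216, 268 and 282 in control glomeruli and a log2 fold change of -1.0. miR-212-3p, made together with miR-132, was higher on the deposited scaling alone, at 0.62. The call of miR-212-3p ended without late GN array 1 or 2 or control array 3 (0.41 to 0.62, limma adjusted p 0.072 to 0.12). The p53-induced miR-34a, the hypoxia-induced miR-210, miR-31 and miR-132 were at 0.38, -0.32, 0.35 and 0.03 and did not pass on the deposited scaling. The miR-193a-3p of the list was not matched to the probe named miR-193. That probe was at -0.10 and passed only with the common median, as lower.

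**Figure D3:**
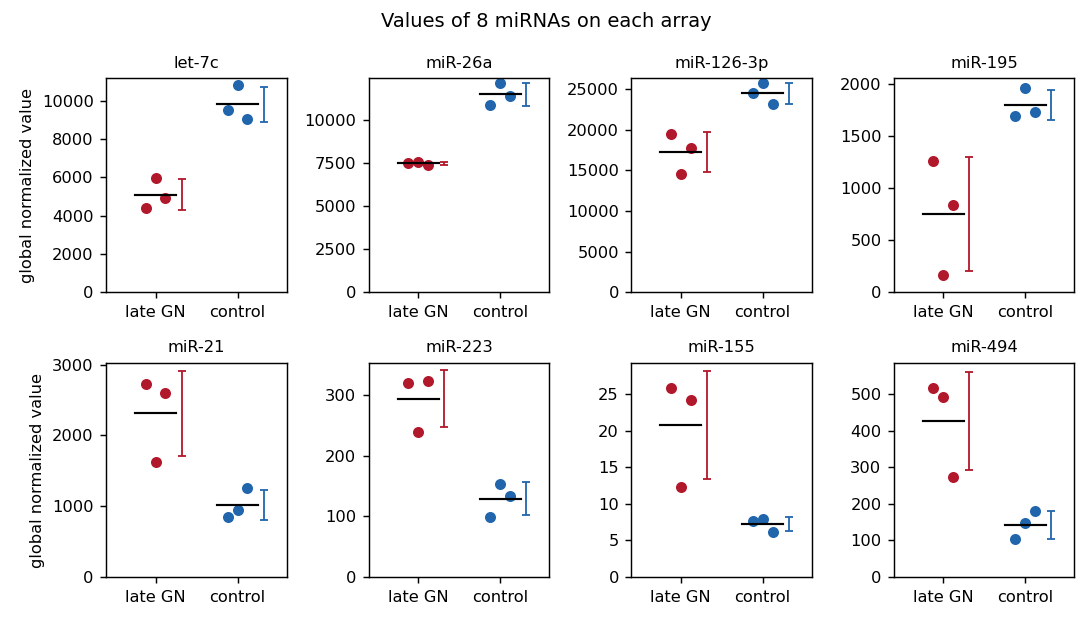
Deposited global normalized value (vertical axis, linear and from 0) of 8 miRNAs on the 3 late GN arrays and the 3 control arrays. Points are arrays, bars means and error bars SD (n = 3); let-7c, miR-26a, miR-126-3p and miR-195 lie below control on every late GN array and miR-21, miR-223, miR-155 and miR-494 above, and late GN array 2 is the low array for miR-195 (170), miR-21 (1622) and miR-155 (12.3).

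miRNAs known from cells outside the tuft were read for other cells that the preparations may have held. Of the tubule list, miR-192, miR-194 and miR-204 were listed on all 6 arrays, and their summed value was 1065 to 1274 on late GN arrays and 786 to 1142 on control arrays. miR-192 and miR-194 were at 0.36 and 0.48 and did not pass, but miR-194 passed on the deposited scaling without control array 2 (0.67, limma adjusted p = 0.046). miR-204, which maintains epithelial barriers and comes from a Trpm3 intron, read 72.6, 68.8 and 56.8 in late GN against 127, 138 and 128 in control glomeruli, a log2 fold change of -0.99 ± 0.17 (SE, limma adjusted p = 0.00186). The 5 members of the epithelial miR-200 family had values of -0.28 to 0.10 and none passed on either scaling, although without control array 3 miR-200a (-0.83) and miR-200b (-0.66) passed with the common median (limma adjusted p 0.041 and 0.036). miRNAs of both lists were thus detectable in the preparations of each group, but the cells that held them were not tested. In the study's sequencing of isolated control glomeruli, miR-192-5p was itself among the most abundant miRNAs.

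The red cell miRNA miR-451 read 452, 689 and 425 in late GN and 828, 945 and 952 in control glomeruli, with no overlap and a log2 fold change of -0.83 (limma adjusted p = 0.00706). Its partner on the transcript, miR-144, was listed on 1 late GN and 2 control arrays only, and the other measured member, the probe for miR-486 and miR-3107, was at 0.62 and did not pass (limma adjusted p = 0.091), except without control array 1 (0.87, 0.022). Of 15 probes matched by name to a list of muscle, liver, brain and pancreas miRNAs, 3 were listed on all 6 arrays. Among those listed on none were miR-206, miR-124, miR-137, miR-216a and miR-217. The probe named miR-1a was not matched to the miR-1 of this list, but it too was listed on all 6 arrays. miR-133a of muscle was lower in late GN, at 9.23, 11.3 and 9.87 against 20.9, 17.1 and 14.7 in control glomeruli (log2 fold change -0.78), and the muscle miRNA miR-1a, named by the size of its change, read 9.55, 10.9 and 7.70 in late GN and 18.2, 20.1 and 27.6 in control glomeruli (log2 fold change -1.21). The part of red cell, muscle or tubule RNA in these preparations in the other differences was not tested.

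The imprinted cluster of chromosome 12, which is expressed from the maternal Meg3 locus, had members called in each direction. Of its 64 listed names, 17 were measured, 7 of them higher and 2 lower on the deposited scaling, where 47.4% of all miRNAs were higher and 14.9% lower. On both scalings 5 were higher and 2 lower, beside 24.3% and 14.9% of all. The counts ran over 3 to 7 higher and 0 to 5 lower in the other scalings. miR-494 read 518, 492 and 274 in late GN and 103, 147 and 179 in control glomeruli, so the lowest late GN array exceeded each control array. Its log2 fold change was 1.56 ± 0.28 (SE, limma adjusted p = 0.00207), and the call was kept in all 7 scalings at 1.02 to 1.59. miR-665 read 371, 364 and 296 in late GN against 182, 129 and 171 in control glomeruli, at 1.11. miR-376a and miR-379 of the same cluster were lower, at -0.95 and -0.64, with miR-376a at 10, 9.07 and 7.73 in late GN against 18.5, 19.6 and 13.9 in control glomeruli. Neighbours of a single polycistronic region were thus called in opposite directions.

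The 12 largest higher differences that passed on both scalings without overlap were miR-327, miR-486*, miR-491, miR-494 and, among higher numbers, miR-692, miR-706, miR-711, miR-1224*, miR-1247*, miR-1930*, miR-1962 and miR-5102, with log2 fold changes of 1.49 to 2.05. miR-327 read 33.9, 45.1 and 22.2 in late GN and 7.79, 7.96 and 7.67 in control glomeruli, a 4.15-fold higher level (2.05 ± 0.24 on the log2 scale, SE, limma adjusted p = 0.000962). The control values of miR-327 were close to the lowest listed on their arrays, 5.16 to 6.31, and over the 7 scalings described below its log2 fold change ran from 0.23 to 2.08 with the call kept in each. miR-486*, from a hairpin in the Ank1 gene, read 345, 366 and 283 in late GN and 121, 90.7 and 101 in control glomeruli, a 3.18-fold higher level. miR-706 read 274, 248 and 246 in late GN against 90.9, 67.3 and 101 in control glomeruli, and miR-711, which lies in the Col7a1 gene, read 347, 338 and 291 in late GN against 93.9, 80.8 and 178 in control glomeruli. For none of these miRNAs did a late GN array fall to a control array. Of the 12, 8 carry numbers of 680 or more, as do 71 of the 116 miRNAs higher on both scalings and 176 of all 477.

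The 12 largest lower differences by the same rule were miR-195, miR-1a, miR-542-5p, miR-34b-5p, miR-542-3p, miR-335-5p, miR-204, miR-450a, let-7c, miR-376a, miR-151-5p and miR-450b-3p, with log2 fold changes of -1.67 to -0.89. All 12 carry numbers below 680, and none is a star strand. Of the 71 miRNAs lower on both scalings, 63 are likewise numbered below 680 without a star, as are 225 of all 477. miR-34b-5p, of a cluster induced by p53, read 19.6, 19.2 and 17.9 in late GN and 42.0, 36.3 and 38.6 in control glomeruli, at -1.04 ± 0.16 (SE, limma adjusted p = 0.00141). Apart from miR-195, none of the 12 lost its call on the deposited scaling when an array was left out.

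The name classes differed in what share was called. Over all 477 miRNAs, 47.4% were higher and 14.9% lower on the deposited scaling, and 24.3% were higher with the common median and on both scalings. Among 225 miRNAs numbered below 680 without a star, the earliest named, 53 were higher and 63 lower on the deposited scaling, with a median of -0.20. Among 76 star strands numbered below 680, 39 were higher and 6 lower, with a median of 0.55. Among 176 miRNAs numbered 680 or more, 134 were higher and 2 lower, with a median of 0.84, and 71 of them were higher on both scalings. With the common median these classes, in the same order, had 21, 24 and 71 higher and 123, 18 and 16 lower, where 32.9% of all were lower. On the deposited scaling the range from miR-1892 to miR-1971 had 29 higher and none lower of 35, miR-3057 to miR-3113 had 36 and none of 45, and miR-5097 to miR-5136 had 21 and none of 26. With the common median these ranges had 19, 16 and 11 higher and 0, 5 and 2 lower. The miRNAs from miR-3470 to miR-3475 had 7 of 9 higher on the deposited scaling and 6 of 9 with the common median. Below 680, the rodent names miR-297, miR-466, miR-467 and miR-669 had 19 of 22 higher on the deposited scaling. Many of these lie in an intron of Sfmbt2. With the common median 5 of 22 were higher, near the share of all miRNAs.

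The summed value shifted between these classes. miRNAs numbered below 680 without a star held 48.0, 39.2 and 46.9% of the summed value of the 477 miRNAs on late GN arrays and 60.5, 62.7 and 61.7% on control arrays. Those numbered 680 or more held 47.1, 55.2 and 48.2% on late GN arrays and 36.1, 34.3 and 35.2% on control arrays. No late GN array overlapped with a control array in either share, and these shares do not depend on a factor per array. The miR-5126 probe alone, chosen after its values were seen, read 30280, 38107 and 28799 in late GN and 19179, 16752 and 18093 in control glomeruli, and miR-3960 read 14758, 21118 and 14861 in late GN and 8368, 8318 and 8631 in control glomeruli. Late GN array 2 was the highest array for both, the reverse of its place for miR-21 and miR-155. An exception among the high numbers, likewise chosen after its values were seen, was miR-3968, which read 5139, 6753 and 6632 in late GN and 11040, 11205 and 11484 in control glomeruli and was lower on both scalings, at -0.88.

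Probe signal and base composition moved with the differences. Over 4 equal bins of mean signal, from the dimmest to the brightest, the median log2 fold change was 0.65, 0.71, 0.40 and -0.21. In the brightest bin 33 of 119 miRNAs were higher and 38 lower on the deposited scaling, beside 47.4% and 14.9% of all. The classes still differed there. Those numbered below 680 without a star had 5 higher and 35 lower of 74 (median -0.44). Those numbered 680 or more had 22 higher and 2 lower of 33 (median 0.80). GC content of the RefSeq hairpin, or of the mature forms where no hairpin was given, could be matched for 409 of the 477 miRNAs (85.7%). The median GC content was 55.9% for the 93 matched miRNAs higher on both scalings, 47.7% for the 65 lower on both and 52.1% for all. Over 4 bins of rising GC content 25, 35, 43 and 76 miRNAs were higher on the deposited scaling, of 103, 102, 103 and 101. The share over all 477 was 47.4%. Pearson's r of GC content and log2 fold change was 0.30 across the 409 miRNAs and 0.18 across the 200 numbered below 680 without a star, which share arrays and scaling. GC content of the mature sequence alone was compared in a smaller matched set. There the medians were 60.9% for 37 miRNAs higher on both scalings and 38.6% for 10 lower on both. Among the sequences above, miR-711 and miR-1247* are rich in G and C, while miR-706, also higher, is not. The part of signal, GC content, slide or detector gain in these differences was not tested.

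**Figure D4:**
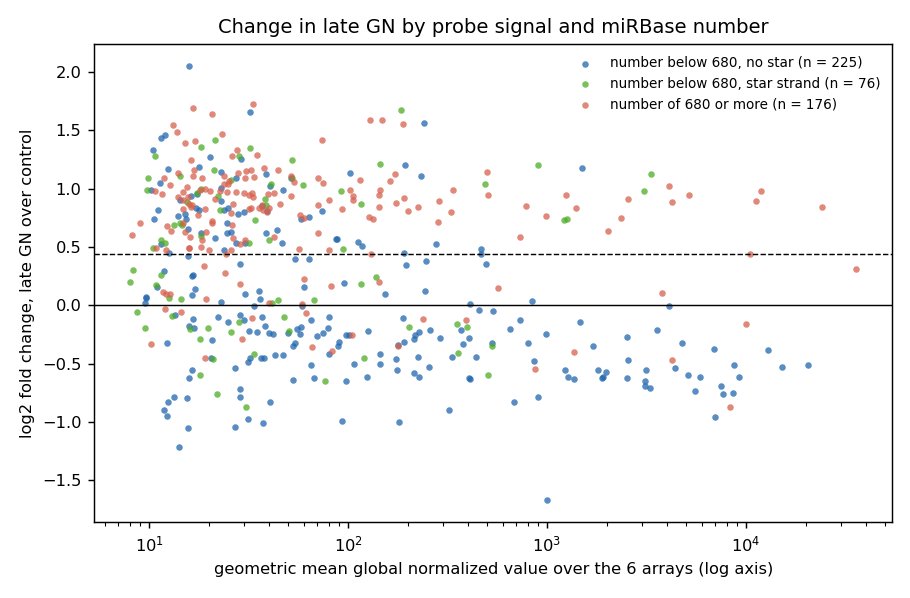
Log2 fold change of late GN over control on the deposited scaling (vertical axis) against the geometric mean of the global normalized value over the 6 arrays (horizontal log axis), 1 point per miRNA, coloured by miRBase number and star strand. The solid line is 0 and the dashed line the common-median zero at 0.44; at high signal the miRNAs numbered below 680 lie mostly below 0 (median -0.44 in the brightest 119 miRNAs) and those numbered 680 or more mostly above it (median 0.80).

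Ratios between strands of a hairpin do not depend on a factor per array. For 76 star strands with a measured partner, the star strand had the higher fold change in 60, and the median difference was 0.29 on the log2 scale. The ratio of star to partner was higher on all 3 late GN arrays than on all 3 control arrays for 22 pairs (28.9%) and lower for 0 (0%). Some partners, such as miR-365 and miR-194, enter more than a single pair. Star strands had a median level of 30.6 and partners 86.4, and the dimmer bins of signal above had the higher median fold changes. The part of signal in these ratios was not tested. In 1 hairpin the star strand was called higher and its partner lower on both scalings. That was miR-204, whose star strand read 118, 155 and 117 in late GN and 60.8, 72.5 and 63.4 in control glomeruli, at 0.98 against -0.99 for miR-204. The call of miR-204* with the common median (0.54) ended without late GN array 2 or 3 or control array 1 or 3 (0.44 to 0.55, limma adjusted p 0.055 to 0.074).

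Pairs next in size had a higher star strand and a partner that did not pass the test on the deposited scaling. miR-365-2* read 44.7, 48.8 and 39.8 in late GN and 19.6, 21.1 and 14.6 in control glomeruli, at 1.28, while miR-365 was at -0.43. miR-92a-2* read 218, 226 and 213 in late GN and 100, 102 and 82.5 in control glomeruli, at 1.21, while miR-92a of the miR-17-92 cluster was at -0.24. For miR-193b* and miR-187* the values were 1.35 and 1.24, against -0.12 and -0.18 for their partners. None of these 4 star strands overlapped between the groups.

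**Figure D5:**
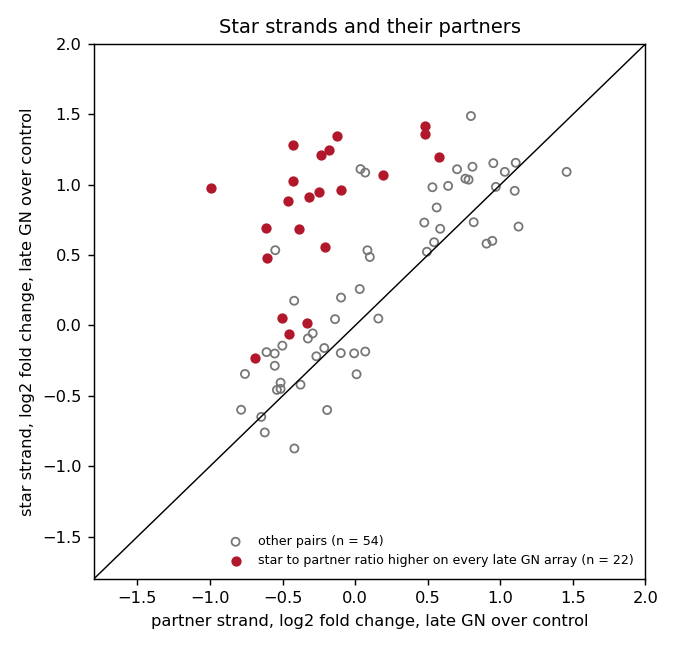
Log2 fold change of late GN over control of the star strand (vertical axis) against that of its partner strand (horizontal axis) for 76 pairs of strands on the deposited scaling, with the line of equality. Filled points are the 22 pairs whose star to partner ratio was higher on every late GN array than on every control array; miR-204 is the point farthest to the left among them, at -0.99 for the partner and 0.98 for the star strand.

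To see which calls did not rest on a scaling, each miRNA was tested under 7 scalings. These were the deposited scaling, the common median, quantile normalization, background-corrected scanner signal with quantile normalization, scanner signal set to the 75th percentile of all or of listed mouse probes, and scaling to the spike controls. A total of 35 miRNAs (7.34%) were higher and 28 (5.87%) lower in every scaling. The lower ones held let-7a, let-7c, let-7e, miR-26a, miR-30b, miR-16, miR-10a, miR-10b, miR-126-5p, miR-218, miR-100, miR-204, miR-335-5p and miR-451, and 24 of the 28 were among the 225 numbered below 680 without a star. The higher ones held miR-494, miR-665 and miR-770-3p of the imprinted cluster, miR-327, miR-706, miR-711 and miR-92a-2*, and 21 of the 35 carried numbers of 680 or more. Such numbers were carried by 176 of all 477. With arrays left out, the deposited call of miR-100 ended without late GN array 1 (-0.42, limma adjusted p = 0.080) or control array 2 (-0.57, 0.071), and the common-median call of miR-770-3p without control array 1 (0.49, 0.062) or 3 (0.48, 0.054). miR-21 and miR-223 were called higher in 6 of the 7, miR-155 and miR-142-3p in 4, miR-126-3p lower in 6, and miR-30a and miR-30c lower in 5. The lowest values were 0.69 for miR-21, 0.65 for miR-223 and 0.11 for miR-155, all above 0.

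The strain carries MRL/MpJ DNA on chromosome 1, and 26 measured miRNAs lie on that chromosome alone in RefSeq. Those with further genes on other chromosomes, such as miR-30c and miR-199a-5p, are not counted among them. On the deposited scaling 9 were higher and 2 lower, where 47.4% of all 477 were higher and 14.9% lower, with a median of 0.35 and a range of -0.76 to 1.36, and the boundary of the congenic segment was not used here. miR-30a and miR-26b were lower on both scalings, and miR-149*, miR-128-1* and miR-194-1* were higher. miR-194-1* read 25.6, 37.1 and 25.7 in late GN and 15.4, 9.89 and 9.48 in control glomeruli. With the common median, the call of miR-194-1* ended without late GN array 2 (0.77, limma adjusted p = 0.051) and that of miR-149* without control array 3 (0.52, 0.051). On the X chromosome 17 were higher and 11 lower of 43, with a median of 0.18, and on chromosome 7 there were 25 higher and 1 lower of 35, with a median of 0.86.

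Of the mouse miRNAs outside the 477, 24 were listed on all 3 late GN arrays and on no control array, and 1, miR-144*, on all 3 control arrays and no late GN array. The means of the 24 in late GN were 6.16 to 14.1, near the lowest listed values. Each was set against the lowest listed value of each control array, or its own scaled scanner signal there where that was higher. On this measure they were 1.06-fold to 2.16-fold higher, but choosing miRNAs listed in late GN alone favours this direction. The measure is thus no test of a difference. Scaled scanner signal also departed from listed values at this level. On late GN array 1, miR-448-5p was listed at 9.73 with a scaled scanner signal of 20.04, and miR-1306-5p at 17.7 with 12.42. miR-1306-5p read 17.7, 16.4 and 8.24 in late GN, miR-135a-1* read 13.6, 13.4 and 11.2, and miR-184, an epithelial miRNA, read 9.56, 11.95 and 6.57, all without a listed control value. A probe without a listed value need not lack signal, and the late GN arrays listed more probes in general. With scanner signal brought to the deposited scale, some unlisted control values exceeded the lowest listed value of their array. miR-721 on control array 2 was at 11.2, where the lowest listed value was 5.41.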

How the data were processed

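RNA of isolated glomeruli, 1 mouse per array, was put on 3D-Gene oligonucleotide chips for mouse miRNAs, and the authors read them with the 3D-Gene Scanner and 3D-Gene Extraction software. The deposited values are linear fluorescence intensity after the authors' global normalization. It subtracted approximately the blank-spot mean from the median of each spot. The result was multiplied by 1 factor per array, so that the median of listed values was 25. The factors were 1.32 to 1.91 in late GN and 1.68 to 1.97 in control. Some probes were left without a listed value. Scanner files gave spot intensity for the alternatives and, through the probe identifier, the miRNA names. Hybridization notes in the labels name another labelling kit than the methods.

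The 477 mouse miRNAs listed on the 3 late GN and 3 control arrays were compared on log2 values with limma 3.58.1 in R 4.3.3 (lmFit, eBayes), 2-sided, with Benjamini-Hochberg adjustment over all 477 and a threshold of 0.05, on the deposited scaling and after setting each array to a common median. Only these 6 arrays entered the fit, since the early GN arrays differed from one another by whole-array shifts. Groups came from the labels by title and age, although the early GN arrays have C57BL/6 in their strain field and the design text exchanges ages. Replicate mice are separate animals, and their number limits the precision. The fit was tested on simulated data. Tables and plots used numpy 2.4.6, matplotlib 3.10.9 and pandas 2.3.3 in Python 3.11.15.

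The members and lists were chosen with earlier results of these data known. The text names the 12 largest differences in each direction that passed on both scalings without overlap, up to 4 members of each list with the highest mean, miR-26a, up to 10 miRNAs listed in 1 group only and the 6 strand pairs with the largest difference. By this rule 100 miRNAs were named, and 33 more were chosen after their values were seen: members of the lists outside the first 4, and miR-690, miR-5126, miR-3960, miR-762, miR-2861, miR-5109, miR-3968 and star strands of chromosome 1. Alternatives were other scalings of deposited or scanner values, a pseudocount of 16, other filters, other moderation and the methods' t-test. Blocks for replicate number and slide, and leaving out each array, were also tried. The normexp offset was 50. For the percentile scalings, background-corrected scanner values at or below 2.96 were set to 2.96, which concerned 62 values. Mature sequences and chromosomes came from RefSeq tables of GRCm38.p6.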

Additional observations from a re-analysis of the deposited data

Results flagged for a closer look

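The array also carried 39 probes for miRNAs of murine cytomegalovirus and a murine gammaherpesvirus, which no comparison above uses. Although the mice were kept free of specific pathogens, 11 of these probes were listed on all 6 arrays, and a signal in late GN above the control arrays in such probes drew attention. Their median log2 difference, late GN over control, was 0.99 on the deposited scaling and 0.56 with the common median, with a range of -0.26 to 1.55, and 10 of the 11 were above 0 on the deposited scaling and 8 with the common median. The arrays listed 24, 24 and 21 virus probes in late GN and 16, 15 and 14 in control, and the median over the 11 was 48.4, 41.6 and 40.8 on late GN arrays and 33.3, 23.0 and 15.96 on control arrays. What these probes bound was not tested.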

How the results depend on the processing

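On the deposited scaling the 226 higher and 71 lower miRNAs became 14 and 1 with all 9 arrays in a single fit over 401 miRNAs, which adds the spread of the early GN arrays and left miR-195 as the lower one. Quantile normalization gave 119 and 121, scanner signal with normexp and quantile normalization 90 higher, the 75th percentile of all mouse probes 47 and 135, that of listed mouse probes 125 higher, the spike controls 42 lower, and a mean value of at least 50, over 222 miRNAs, 85 higher. With the common median, 116 higher became 68 by the methods' t-test, 75 with either percentile scaling and 77 with a mean of at least 50, and 157 lower became 95 with normexp and quantile normalization and 83 with a mean of at least 50. Leaving out each array gave 199 to 222 higher and 47 to 64 lower on the deposited scaling (47 without control array 2), and 75 to 94 and 127 to 157 with the common median (75 without late GN array 1). The methods' t-test gave 210 higher and 77 lower on the deposited scaling at its unadjusted threshold and 181 and 58 after Benjamini-Hochberg adjustment, and with the common median 122 and 145 unadjusted and 68 and 105 adjusted. Among named miRNAs called in at least 1 of the settings compared, signs turned for miR-128 (-0.91) and miR-214 (-0.018) at the 75th percentile of all mouse probes, for miR-29a (0.084) and miR-29b (0.059) with quantile normalization, for miR-29a (0.076), miR-29b (0.052) and miR-192 (0.31) with normexp and quantile normalization of the scanner signal, and for miR-106b (-0.84 without control array 1 and up to 0.53 without control array 2); the cause was not tested. Uncalled values crossed 0 as well, such as those of miR-221 (to -0.14), miR-34a (to -0.11), miR-690 (to -0.19) and miR-199a-5p (to -0.38). The replicate numbers did not pair the arrays (same-number correlations 0.14, 0.06 and 0.03), and with the replicate number as a block there were 240 higher and 72 lower miRNAs on the deposited scaling and 106 and 155 with the common median. With slide as a random block the counts were 236 and 93, and 148 and 176. No slide held arrays of both groups, so this block cannot take a slide difference out of the comparison. The estimated correlation within a slide was negative, at -0.31 and -0.33. The pseudocount, the wider set, the series table, trend and robust moderation kept each count within 1.5 times. Values near the lowest listed intensity move most with the background, and 3 arrays per group limit what can be called.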

Other observations

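Values of further bright probes of high number, miR-690, miR-762, miR-2861 and miR-5109, were chosen after they were seen. miR-690 read 32703, 47360 and 41123 in late GN and 32675, 34275 and 29748 in control glomeruli and did not pass the limma test (log2 fold change 0.31, adjusted p = 0.17). miR-762, miR-2861 and miR-5109 were at 0.89, 0.94 and 1.02 on the deposited scaling and at 0.46, 0.51 and 0.59 with the common median, where miR-762 did not pass. The common-median call of miR-2861 ended without any late GN array or without control array 1 or 3 (0.38 to 0.58, limma adjusted p 0.051 to 0.13), and that of miR-3960 without late GN array 2 or 3 or any control array (0.40 to 0.57, 0.053 to 0.061). For miR-762, miR-2861 and miR-5109 the highest of the 6 arrays was late GN array 2.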
